A study of Mus musculus with 6 samples.

Results

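The 39 mouse genes described here carry glucose to pyruvate and pyruvate into lactate or the mitochondrion. They were taken by symbol from the count table of whole kidneys. Of 55401 gene IDs in the table, 40 matched these symbols. The symbol Aldoa matched 2 IDs, and ENSMUSG00000030695, which held nearly all of its counts, was used. All 39 genes passed the filter on low counts and stand among the 19197 genes tested.

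The series profiled poly(A) RNA of whole mouse kidneys, with 3 control libraries and 3 libraries of diabetic kidney disease (DKD), to follow histone methyltransferases in that disease. The labels name the genotype as control or DKD and number the replicates. They state no strain, induction of diabetes, age or treatment for either group. Whether each library is a separate animal is not said either, and the p-values then measure only the spread between the 6 libraries, part of which may be technical. Total counts per library ran from 64816622 to 77417638. Levels are given in CPM, that is counts relative to library size as adjusted by edgeR's TMM factors, and differences are DKD minus control on the log2 scale with their standard error (SE).

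In glycolysis, hexokinases phosphorylate glucose, phosphofructokinase-1 commits the sugar to breakdown, and a chain of abundant enzymes from aldolase to pyruvate kinase turns it into pyruvate. The bifunctional Pfkfb enzymes set the level of fructose 2,6-bisphosphate, the strongest activator of phosphofructokinase-1, and the isoform encoded by Pfkfb3 favours its synthesis. Pyruvate is either exchanged with lactate by lactate dehydrogenase, or carried into mitochondria and oxidised by the pyruvate dehydrogenase complex. That complex is switched off when the kinases Pdk1 to Pdk4 phosphorylate it and switched on again by the phosphatases Pdp1 and Pdp2. In the kidney, proximal tubules burn mainly fatty acids and lactate and also make glucose, while distal segments and the medulla use more glucose.

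The libraries did not vary only with their labels. DKD replicate 1 held 4472 CPM summed over 12 hepatocyte markers, 2321 CPM of it Alb (serum albumin), where the other 5 libraries held 175 to 412 CPM of that list. Kidney identity was clear in every library: 10 markers of proximal tubule summed to 23300 to 24530 CPM in the controls and to 19928, 13780 and 13223 CPM in DKD replicates 1, 2 and 3. Adipocyte markers summed to 1.25 to 2.36 CPM in the controls and 1.68, 4.97 and 20.7 CPM in the DKD libraries, with Adipoq, Plin1, Lep and Ucp1 at 0 counts in all controls and in DKD replicate 1. In RNA of whole organs, fewer cells of a type and less RNA per cell cannot be told apart.

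No gene passed the adjusted threshold of 0.05 in edgeR's quasi-likelihood test with all 6 libraries: 0% of 19197 genes were called, and 0 of the 39 members. The smallest adjusted p in the whole table was 0.0721, and the smallest among the members was 0.103, reached by Pfkfb3, Pdk1 and Pdp2. At an unadjusted p under 0.05, 10 members (25.6%) differed, against 19.2% of all genes. Split by direction, 12.2% of all genes were higher and 7.05% were lower in DKD, against 5 members higher (12.8%: Hk1, Pfkp, Pfkfb3, Pdk1 and Pdk4) and 5 lower (12.8%: Tpi1, Ldhb, Ldhd, Pdk2 and Pdp2). The members' share of higher genes was near that of all genes, and their share of lower genes was larger by a few genes. The fitted level was higher in DKD for 21 members (53.8%, against 52.4% of all genes) and lower for 18 (46.2%, against 47.6%). A log2 difference past 0.5 was reached by 9 members upward (23.1%, against 23.2% of all genes) and by 2 downward (5.13%, against 6.97%). The median log2 difference was 0.02 over the members and 0.02 over all genes.

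Other fits of the same counts called some members. Without DKD replicate 1, edgeR called 9.67% of all genes higher and 5.84% lower, and 6 members higher (Hk2, Pfkp, Pfkfb3, Slc16a3, Pdk1 and Pdk4) and 5 lower (Tpi1, Ldhd, Pdk3, Dlat and Pdp2). DESeq2 on all 6 libraries called 6.22% of genes higher and 2.89% lower, and 3 members higher (Pfkp, Pfkfb3 and Pdk1) and 4 lower (Tpi1, Ldhb, Ldhd and Pdp2). limma-voom with sample quality weights called 9.94% higher and 7.75% lower, and 5 members in each direction, while limma-voom without weights called 0 genes. Pfkfb3, Pdk1, Pfkp, Tpi1, Ldhd and Pdp2 were called in all 3 of the fits that called any member. edgeR without the low count filter, without control replicate 1 and without DKD replicate 3 called 4, 7 and 1 genes, none of them a member.

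**Figure D1:**
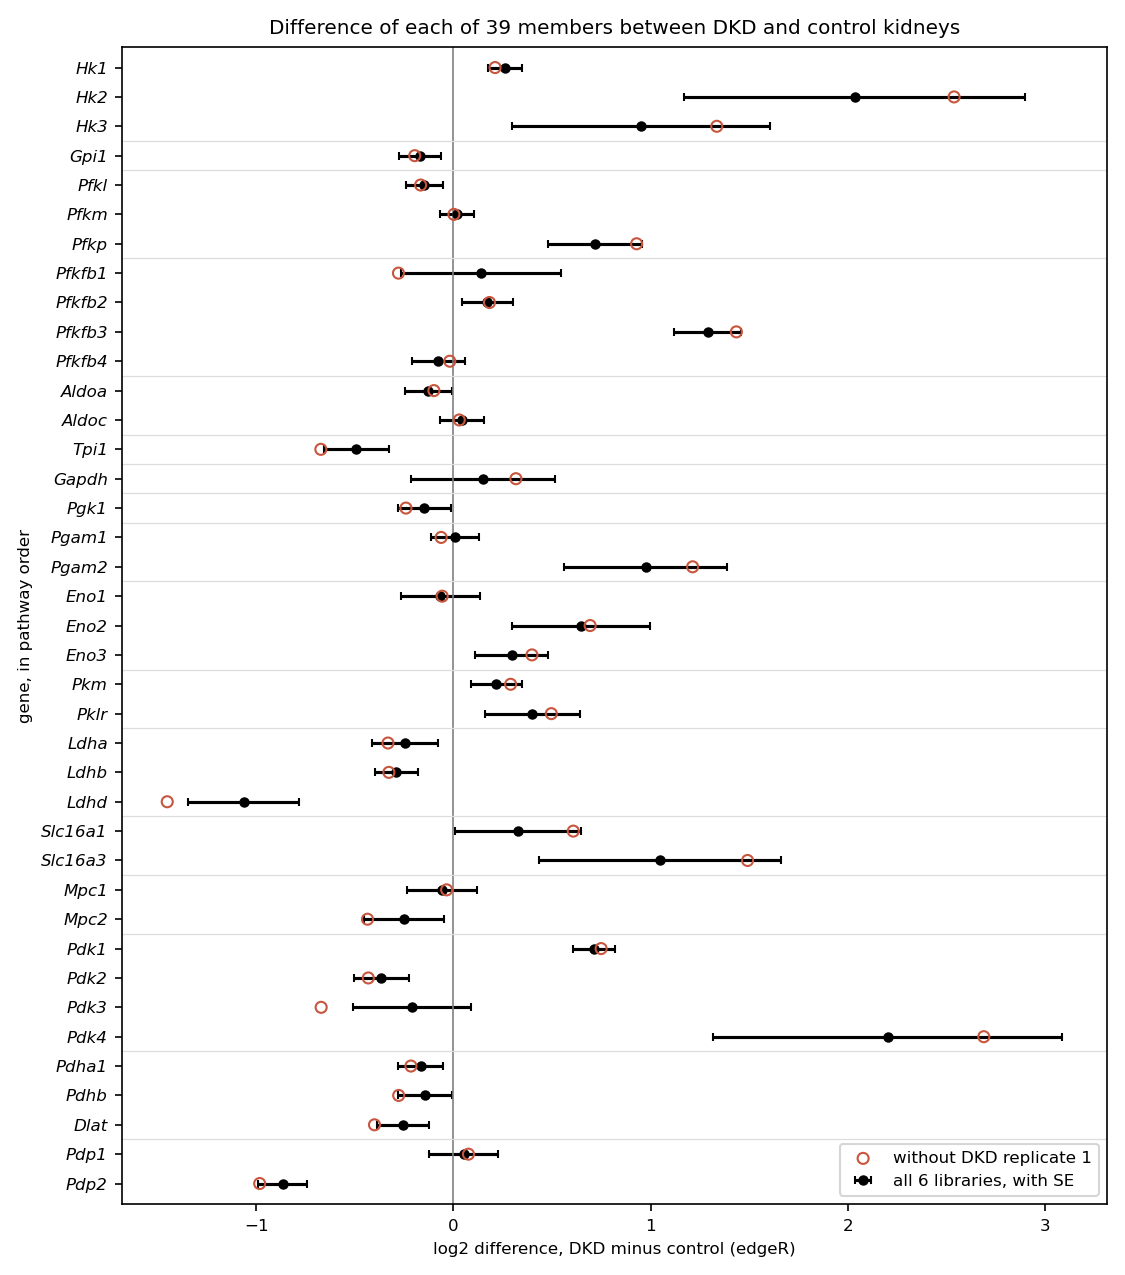
Log2 difference of each of the 39 members, DKD minus control in edgeR (x axis; black points with SE bars for all 6 libraries, open circles without DKD replicate 1), in pathway order from hexokinase to the pyruvate dehydrogenase phosphatases (y axis). Pfkfb3 (1.29), Pdk1 (0.71), Pdp2 (-0.86) and Ldhd (-1.06) lie far from 0 relative to their SE, and the open circle of Pdk3 (-0.67) and Ldhd (-1.45) lies outside their SE bar.

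Pfkfb3, which makes the activator of phosphofructokinase-1, was the member with the smallest p. Its level was 12.8, 14.2 and 13.3 CPM in control replicates 1 to 3 and 25.4, 32.9 and 40.2 CPM in DKD replicates 1 to 3. Every DKD library lay above every control, and DKD replicate 1 was the closest to them. The means were 13.4 ± 0.733 and 32.8 ± 7.41 CPM (SD, n = 3 each), a 2.44-fold difference. In edgeR the log2 difference was 1.29 ± 0.17 (SE), with an unadjusted p of 0.000123 and an adjusted p of 0.103. Without DKD replicate 1 it was 1.43, with an adjusted p of 0.00157 in edgeR. Leaving out DKD replicate 3 instead gave 1.12 (adjusted p = 0.275, edgeR).

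Pdk1 encodes a kinase that switches the pyruvate dehydrogenase complex off and, like Pfkfb3, is a well-known target of hypoxia-inducible factor (HIF). It measured 31.0, 29.9 and 25.3 CPM in the controls and 44.0, 49.3 and 47.9 CPM in the DKD libraries. The groups were far apart and tight, with means of 28.7 ± 3.00 and 47.0 ± 2.74 CPM (SD, n = 3 each), a 1.64-fold difference. In edgeR the log2 difference was 0.71 ± 0.11 (SE), with an unadjusted p of 0.000253 and an adjusted p of 0.103. Without DKD replicate 1 it was 0.75, with an adjusted p of 0.0086. Leaving out DKD replicate 3 instead gave 0.70 (adjusted p = 0.320, edgeR).

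Promoter sequence is shown for the members that lay farthest apart in each direction relative to their error, because HIF binds a short core, ACGTG or GCGTG, and both Pfkfb3 and Pdk1 are textbook targets. Each window runs from 250 bases before to 50 after an annotated start (RefSeq, build GRCm38.p6, not the build of the count table), 5′ to 3′ on the gene's strand. Capitals mark the core on either strand; where the palindrome CACGTG occurs, it holds the core on both strands and all its 6 letters are in capitals.
Pfkfb3, inner start (chr2:11502041-11502340, minus strand): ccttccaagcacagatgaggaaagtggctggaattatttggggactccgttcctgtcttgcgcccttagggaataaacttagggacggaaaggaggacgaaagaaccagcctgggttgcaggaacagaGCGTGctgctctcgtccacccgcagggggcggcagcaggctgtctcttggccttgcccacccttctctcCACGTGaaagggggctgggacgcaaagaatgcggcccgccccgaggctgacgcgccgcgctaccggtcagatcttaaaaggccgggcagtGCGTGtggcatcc
Pfkfb3, outer start (chr2:11553880-11554179, minus strand): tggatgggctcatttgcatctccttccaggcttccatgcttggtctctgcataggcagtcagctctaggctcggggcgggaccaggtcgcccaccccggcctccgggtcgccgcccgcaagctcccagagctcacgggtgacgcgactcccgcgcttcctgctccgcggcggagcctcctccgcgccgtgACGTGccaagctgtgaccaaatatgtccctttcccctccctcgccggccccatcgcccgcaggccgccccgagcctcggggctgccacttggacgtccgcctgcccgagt
Pdk1 (chr2:71872974-71873273, plus strand): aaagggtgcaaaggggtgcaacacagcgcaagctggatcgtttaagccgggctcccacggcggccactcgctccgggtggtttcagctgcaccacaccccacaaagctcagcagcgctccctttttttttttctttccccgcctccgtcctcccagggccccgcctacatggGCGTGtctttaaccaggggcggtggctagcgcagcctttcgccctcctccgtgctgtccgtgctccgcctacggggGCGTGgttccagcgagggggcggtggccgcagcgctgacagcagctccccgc
Pdp2 (chr8:104591222-104591521, plus strand): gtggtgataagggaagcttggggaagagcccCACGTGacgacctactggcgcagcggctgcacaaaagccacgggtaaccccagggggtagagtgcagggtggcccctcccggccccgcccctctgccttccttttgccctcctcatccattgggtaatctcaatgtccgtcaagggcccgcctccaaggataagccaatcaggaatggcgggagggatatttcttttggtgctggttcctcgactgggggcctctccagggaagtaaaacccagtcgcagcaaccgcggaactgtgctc
Ldhd (chr8:111630287-111630586, minus strand): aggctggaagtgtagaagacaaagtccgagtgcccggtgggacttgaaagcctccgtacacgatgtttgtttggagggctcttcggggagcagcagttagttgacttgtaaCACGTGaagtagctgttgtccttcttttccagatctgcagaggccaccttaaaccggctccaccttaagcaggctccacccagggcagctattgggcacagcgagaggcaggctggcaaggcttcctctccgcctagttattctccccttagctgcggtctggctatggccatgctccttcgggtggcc

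The inner Pfkfb3 window held 4 core matches, at -122, -53, -52 and 38 from the start, and the outer one held 1, at -60. The Pdk1 window shown held 2, at -78 and -2, while the window of a further annotated Pdk1 start held 0. The Pdp2 window held 2, at -219 and -218, and the Ldhd window 2, at -139 and -138. Each of these pairs, like that at -53 and -52 of Pfkfb3, is 1 CACGTG read on both strands. The letters occurred in genes that were higher and in genes that were lower in DKD. Of the 38 members with an entry, 32 held the core at some start, against 12628 of all 27025 genes (46.7%). By window it was 42 of 59 (71.2%), against 43.8% of all 32851 promoters and 49.3% of the 21262 of protein-coding genes. The members' windows were also richer in G and C, with a median of 60.3% against 52.7% in all promoters and 56.3% in those of protein-coding genes. CACGTG was in 13.6% of the members' windows, 7.15% of all and 7.84% of protein-coding ones. The letters AGGTCA repeated with 1 base between, a motif of nuclear receptors such as HNF4A and PPARA, was in 0 of 59 member windows and in 0.0396% of all. A match is only a run of letters in this window and was not tested as a binding site.

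**Figure D2:**
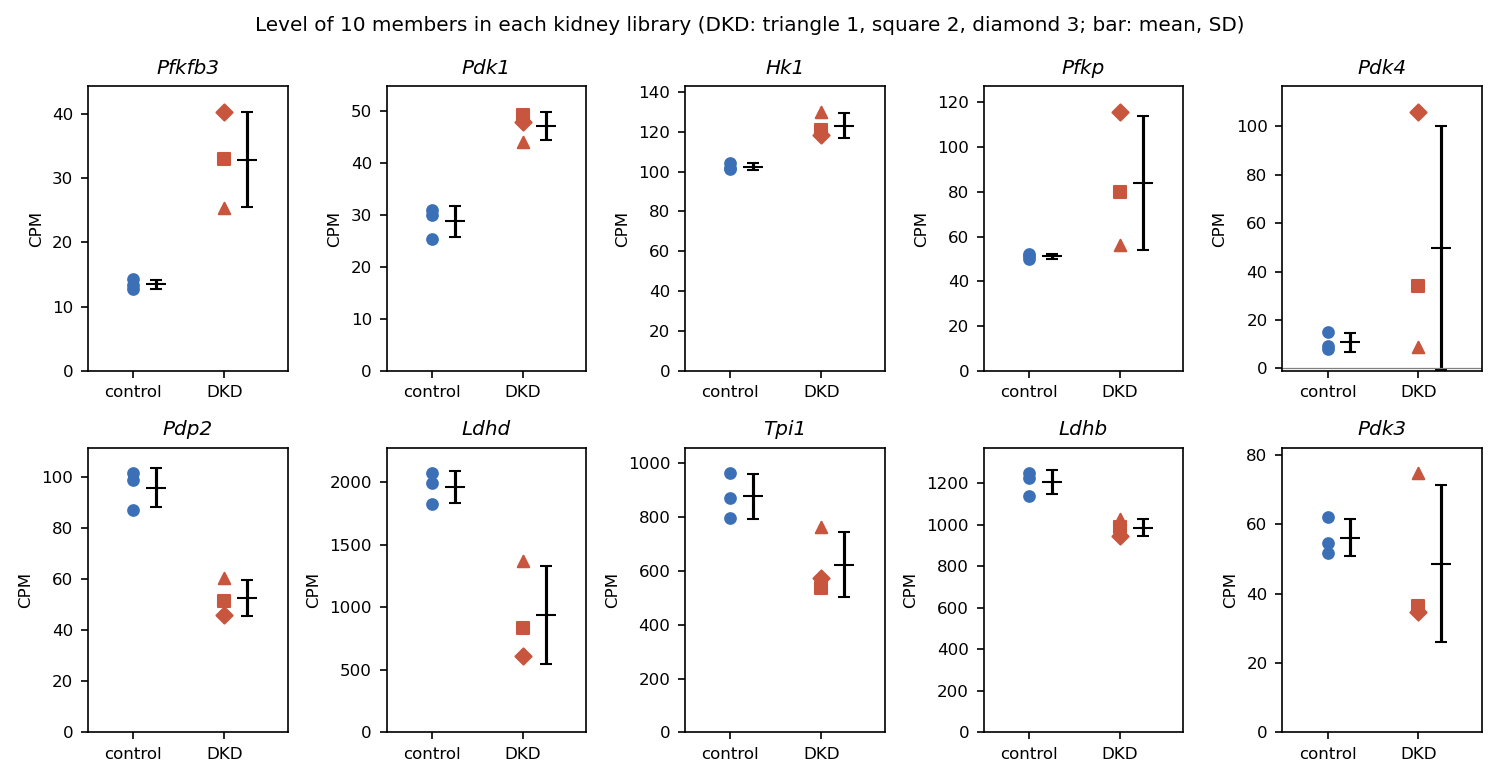
Level in CPM (y axes, linear) of 10 members in each control library (circles) and each DKD library (triangle for replicate 1, square for 2, diamond for 3), with the mean and SD of each group as bars. Pfkfb3, Pdk1, Hk1 and Pfkp are higher in all 3 DKD libraries and Pdp2, Ldhd, Tpi1 and Ldhb are lower, whereas Pdk4 and Pdk3 overlap because DKD replicate 1 sits apart from replicates 2 and 3; the lower SD bar of Pdk4 in DKD reaches below 0.

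At the first step, hexokinase RNA was almost all Hk1, the constitutive form bound to the mitochondrial surface. Hk1 stood at 102, 101 and 104 CPM in the controls and 130, 121 and 118 CPM in DKD. The groups did not overlap, and DKD replicate 1 was the highest. The log2 difference was 0.26 ± 0.08 (SE), with an unadjusted p of 0.0168 and an adjusted p of 0.176 in edgeR. Hk2, the insulin- and HIF-responsive form, was at 0.151, 0.545 and 0.381 CPM in the controls and 0.210, 2.10 and 2.13 CPM in DKD, values that are given because it passed without DKD replicate 1. DKD replicate 1 lay among the controls and replicates 2 and 3 well above them. Its log2 difference was 2.03 ± 0.87 (SE) with all libraries and 2.54 without DKD replicate 1, where the adjusted p was 0.0183 in edgeR. Leaving out DKD replicate 3 instead gave 1.68 (adjusted p = 0.553, edgeR). Hk3, found mainly in myeloid cells, ran from 0.202 to 0.788 CPM in the controls and 0.368 to 1.32 CPM in DKD. Macrophage and myeloid markers moved alongside, at 131, 132 and 153 CPM in the controls and 137, 240 and 302 CPM in DKD, and their part in these values was not tested. Per kilobase of exon, Hk1 made up 99.0 ± 0.577% of the hexokinase RNA in control and 97.8 ± 1.43% in DKD (SD, n = 3 each).

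Glucose-6-phosphate isomerase, Gpi1, was slightly lower in DKD. It measured 581, 527 and 511 CPM in the controls and 492, 462 and 487 CPM in DKD, groups that did not overlap but lay close together. The log2 difference was -0.17 ± 0.11 (SE), with an unadjusted p of 0.151.

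Phosphofructokinase-1 is built from liver (Pfkl), muscle (Pfkm) and platelet (Pfkp) subunits, and Pfkp alone differed at an unadjusted p under 0.05. Pfkp was at 52.1, 51.4 and 49.9 CPM in the controls and 56.4, 80.1 and 116 CPM in DKD. The controls were almost identical, DKD replicate 1 lay just above them and DKD replicate 3 was the highest by far. The log2 difference was 0.72 ± 0.24 (SE), with an unadjusted p of 0.0197 and an adjusted p of 0.185 in edgeR; without DKD replicate 1 it was 0.93 (adjusted p = 0.011), and without DKD replicate 3 it was 0.42 (adjusted p = 0.412). Pfkl ran from 70.8 to 76.1 CPM in the controls and from 60.0 to 70.9 CPM in DKD, and Pfkm from 55.0 to 62.0 and from 57.6 to 60.2 CPM. Of the summed RNA per kilobase, Pfkp made up 22.8%, 23.6% and 23.7% in the controls and 25.8%, 34.0% and 41.3% in DKD. The share of Pfkl was 38.4 ± 0.364% in control and 31.2 ± 3.38% in DKD (SD, n = 3 each). In the annotation, 17.1% of the 50-base windows of Pfkp also occur in transcripts of other genes, mainly its neighbour Pitrm1.

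Among the enzymes that make and break fructose 2,6-bisphosphate, Pfkfb3 stood apart. Pfkfb1, the liver isoform, was at 0.803 to 1.41 CPM in the controls and 1.84, 0.882 and 0.966 CPM in DKD, highest in the library with the hepatocyte markers. Pfkfb2, the heart isoform, ran from 12.6 to 14.6 CPM in the controls and 13.9 to 16.4 CPM in DKD, and Pfkfb4 from 11.4 to 12.2 and from 10.05 to 12.3 CPM. Per kilobase, Pfkfb3 held 26.4%, 28.6% and 26.4% of the RNA in the controls and 40.8%, 45.3% and 53.2% in DKD. Pfkfb4 was the most abundant of the 4 in each control library, at 37.3 ± 1.54%, and Pfkfb3 in each DKD library, with Pfkfb4 at 25.1 ± 1.86% (SD, n = 3 each). The summed level of the 4 genes was 8.8, 9.0 and 9.1 CPM per kilobase in the controls and 11.3, 13.2 and 13.7 in DKD.

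From aldolase to pyruvate kinase, 11 of the 12 genes gave an unadjusted p above 0.05, the exception being Tpi1. Triose phosphate isomerase, Tpi1, interconverts the products of aldolase. It was at 961, 870 and 795 CPM in the controls and 761, 535 and 571 CPM in DKD, with DKD replicate 1 just under the lowest control. The log2 difference was -0.49 ± 0.16 (SE), with an unadjusted p of 0.0197 and an adjusted p of 0.185 in edgeR, and -0.67 without DKD replicate 1 (adjusted p = 0.0121). It was -0.43 without DKD replicate 3 (adjusted p = 0.469, edgeR). Aldoa, the main aldolase of the list, ran from 854 to 1010 CPM in the controls and 786 to 872 CPM in DKD. Pgk1, phosphoglycerate kinase, ran from 509 to 628 and from 464 to 552 CPM. Eno1, the ubiquitous enolase, ran from 863 to 1296 and from 841 to 1111 CPM. Control replicate 1 was the highest control for each of these 3 genes. It was so for other members too, among them Tpi1, Gpi1, Ldha, Ldhb, Pgam1, Mpc1, Mpc2 and Pdk1. For Ldhd, Pdk2, Pdp2 and Pfkfb3 it was not. Aldoc stayed between 14.3 and 16.8 CPM in all 6 libraries, and Pgam1 between 241 and 297 CPM.

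Among the minor isoforms of these steps, Pgam2, the muscle form of phosphoglycerate mutase, was at 11.1 to 29.7 CPM in the controls and 23.7 to 48.4 CPM in DKD, a log2 difference of 0.97 ± 0.41 (SE) with an unadjusted p of 0.0529. Skeletal muscle markers were near 0 throughout, at 0.889 to 2.02 CPM in the controls and 1.91 to 2.38 CPM in DKD for the 9 genes summed, with Myh4 and Myh2 at 0 counts everywhere. Eno2, the neuronal enolase, was at 0.74, 1.5 and 1.59 CPM in the controls and 1.85, 1.87 and 2.30 CPM in DKD. Its groups did not overlap, with a log2 difference of 0.65 ± 0.35 (SE) and an unadjusted p of 0.106, or 0.37 without control replicate 1. Eno3, the muscle enolase, ran from 5.02 to 6.14 CPM in the controls and from 5.65 to 7.32 CPM in DKD.

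Pyruvate kinase was mostly Pkm, at 262 to 312 CPM in the controls and 289 to 366 CPM in DKD, and 90.2 ± 1.77% and 88.9 ± 1.19% of the step per kilobase (SD, n = 3 each). Its M1 and M2 splice forms cannot be told apart in counts per gene. Pklr, the liver and red cell form, ran from 29.3 to 49.1 CPM in the controls and from 40.8 to 60.6 CPM in DKD.

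Gapdh is the usual reference gene of this pathway, but its values here were erratic. They were 77.4, 38.3 and 44.8 CPM in the controls and 43.8, 88.0 and 46.3 CPM in DKD, so that the spread within each group exceeded the difference of 0.15 ± 0.36 (SE) on the log2 scale. Per kilobase, Gapdh ranked the 17th of the 39 members in the controls, at 35.8 CPM per kilobase, far under Aldoa at 498 and Tpi1 at 496. In the annotation, 82.5% of its 50-base windows also occur in transcripts of 222 other genes, mostly processed copies, and the copy Gapdh-ps15 alone stood at 30.7 to 50.2 CPM in the controls. How reads were shared among such copies in the counting is not given in the sources used here. Windows shared with other genes also made up 72.2% of those of Eno1, 68.0% of Pgk1, 41.5% of Pgam1, 34.4% of Pkm, 30.3% of Pdhb, 29.6% of Mpc1, 27.0% of Ldhb, 25.3% of Gpi1, 16.6% of Ldha, 13.5% of Aldoa and 7.51% of Tpi1. For Pfkfb2 (25.1%) and Pklr (23.2%) all of them were shared with a single other gene, Gm29427 and Hcn3, and for Pdha1 (16.9%) nearly all with Map3k15. The levels of these genes are uncertain to that extent, and besides Pfkp the remaining members had under 3% of windows shared. For Pfkfb3, Pdk1, Pdp2 and Ldhd the share was under 1%.

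Summed over the listed genes, lactate dehydrogenase was the most abundant step per kilobase, and all 3 of its genes had a lower fitted level in DKD. Ldhb, the subunit favoured in oxidative tissue, was at 1246, 1227 and 1139 CPM in the controls and 1025, 986 and 946 CPM in DKD. The groups did not overlap, with a log2 difference of -0.29 ± 0.11 (SE) and an unadjusted p of 0.0305 (adjusted p = 0.215, edgeR). Ldhd, the mitochondrial enzyme for D-lactate, was at 1824, 2069 and 1990 CPM in the controls and 1370, 837 and 607 CPM in DKD. All 3 DKD libraries were below the controls but far apart from each other, with means of 1961 ± 125 and 938 ± 391 CPM (SD, n = 3 each), 2.09-fold lower in DKD. The log2 difference was -1.06 ± 0.28 (SE), with an unadjusted p of 0.00678 and an adjusted p of 0.14 in edgeR, and -1.45 without DKD replicate 1 (adjusted p = 0.00317). It was -0.83 without DKD replicate 3 (adjusted p = 0.346, edgeR). Ldha, the subunit favoured in glycolytic tissue, ran from 603 to 857 CPM in the controls and from 550 to 642 CPM in DKD, with overlapping groups. Summed over the 3 genes, the step stood at 2210.2, 2169 and 2070.5 CPM per kilobase in the controls and 1728, 1417 and 1283 in DKD. That sum includes Ldhd, although it acts on D-lactate and is a different enzyme from Ldha and Ldhb. The mean per kilobase went from 863 to 413 for Ldhd, from 923 to 756 for Ldhb and from 364 to 307 for Ldha. The markers of proximal tubule were lower in DKD too, least in replicate 1, with a lower fitted level for 10 of 10 and an unadjusted p under 0.05 for 7. Their part in the values of Ldhb, Ldhd and Tpi1 was not tested.

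Monocarboxylate transporters carry lactate and pyruvate across the cell membrane. Slc16a1 (MCT1) was at 31.4, 26.9 and 27.4 CPM in the controls and 20.0, 35.1 and 52.6 CPM in DKD, and Slc16a3 (MCT4, the exporter of glycolytic cells) at 0.774, 0.682 and 0.875 CPM and 0.420, 1.73 and 2.67 CPM. For both, DKD replicate 1 was the lowest of all 6 libraries and replicates 2 and 3 were above all controls. The log2 difference of Slc16a3 was 1.05 ± 0.61 (SE) with all libraries and 1.49 without DKD replicate 1, where the adjusted p was 0.0258 in edgeR. Without DKD replicate 3 it was 0.47 (adjusted p = 0.807). That of Slc16a1 was 0.33 ± 0.32 (SE), with 0.61 when DKD replicate 1 was left out (adjusted p = 0.0592) and with -0.054 when DKD replicate 3 was (adjusted p = 0.953). These per-library values, and those of Pdk3 below, are given because the DKD libraries fell on opposite sides of the controls, a choice made after they were seen.

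The mitochondrial pyruvate carrier, formed by Mpc1 and Mpc2, did not separate the groups. Mpc1 ran from 126 to 192 CPM in the controls and from 136 to 153 CPM in DKD, and Mpc2 from 183 to 271 and from 158 to 221 CPM. The subunits of pyruvate dehydrogenase overlapped as well: Pdha1 ran from 520 to 614 and from 479 to 524 CPM, Pdhb from 160 to 198 and from 144 to 185 CPM, and Dlat from 174 to 195 and from 138 to 181 CPM. All 3 had a lower fitted level in DKD, by log2 differences of -0.17, -0.14 and -0.26, although Pdhb was at 0.0029 when counts were scaled by library size alone. Dlat passed the threshold without DKD replicate 1, at -0.40 (adjusted p = 0.0353, edgeR), and was at -0.20 without DKD replicate 3 (adjusted p = 0.653).

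The 4 kinases of the complex did not share a direction. Pdk2, which made up 77.6 ± 3.08% of the kinase RNA per kilobase in the controls, was at 259, 315 and 253 CPM there and 231, 226 and 186 CPM in DKD. Its groups did not overlap, with a log2 difference of -0.36 ± 0.14 (SE) and an unadjusted p of 0.0319 (adjusted p = 0.219, edgeR). Pdk1 was higher, as given above, and went from 3.5% to 6.4% of the kinase RNA.

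Pdk4, the kinase induced by fasting and fatty acids, was at 15.1, 7.88 and 9.39 CPM in the controls and 9.01, 34.0 and 106 CPM in DKD. DKD replicate 1 lay inside the control range and replicate 3 was the highest by far. The means were 10.8 ± 3.83 and 49.7 ± 50.4 CPM (SD, n = 3 each), and the log2 difference of 2.20 ± 0.88 (SE) had an unadjusted p of 0.0497 and an adjusted p of 0.259 in edgeR. Without DKD replicate 1 the difference was 2.69 (adjusted p = 0.037) and without DKD replicate 3 it was 0.99 (adjusted p = 0.574), so its size depended on which library was left out. The adipocyte markers were also highest in DKD replicate 3, and their part in the Pdk4 value was not tested.

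Pdk3 was at 62.0, 54.7 and 51.8 CPM in the controls and 74.7, 36.4 and 34.6 CPM in DKD, where replicate 1 lay above all controls and replicates 2 and 3 below them. Its log2 difference was -0.21 ± 0.30 (SE) with all libraries and -0.67 without DKD replicate 1 (adjusted p = 0.0112, edgeR), but -0.016 without DKD replicate 3 (adjusted p = 0.991). Summed over the 4 kinases, the step stood at 145 to 174 CPM per kilobase in the controls and 137 to 149 in DKD, so that the higher Pdk1 and Pdk4 values did not give a higher sum.

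On the phosphatase side, which reactivates the complex, Pdp2 was lower in every DKD library. It was at 87.1, 101 and 98.9 CPM in the controls and 60.3, 51.5 and 46.2 CPM in DKD, with means of 95.8 ± 7.69 and 52.7 ± 7.14 CPM (SD, n = 3 each), 1.82-fold lower in DKD. The gap between the groups was wider than the range within either. The log2 difference was -0.86 ± 0.12 (SE), with an unadjusted p of 0.000197 and an adjusted p of 0.103 in edgeR, and -0.98 without DKD replicate 1 (adjusted p = 0.0036). Leaving out DKD replicate 3 instead gave -0.78 (adjusted p = 0.320, edgeR). Pdp1, the calcium-sensitive phosphatase, overlapped, at 6.33 to 8.21 CPM in the controls and 6.92 to 8.06 CPM in DKD. Because Pdp2 made up 91.5 ± 0.941% of the phosphatase RNA per kilobase in the controls, the sum of both stood at 16.7 to 19.3 CPM per kilobase in the controls and 9.6 to 12.1 in DKD. The kinase Pdk1 and the main phosphatase, Pdp2, lay on opposite sides of the controls in all 3 DKD libraries.

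In a ratio of 2 isoforms within a library, the scaling of that library cancels. Of 16 ratios, 5 did not overlap between the groups. Each of the 5 holds a member whose own groups did not overlap, so the count is not a separate result. For single genes, 25.4% of all did not overlap, and no such share was computed for ratios. The ratio of Pfkfb3 to Pfkfb2 counts was 0.917 to 1.12 in the controls and 1.75 to 2.89 in DKD. The ratio of Pdk1 to Pdk2 was 0.0948 to 0.12 and 0.19 to 0.258, and that of Pdp1 to Pdp2 was 0.0653 to 0.0831 and 0.116 to 0.157. Pfkp to Pfkm and Eno2 to Eno1 also separated, with log2 differences of 0.64 and 0.76. Each of the 5 reached the smallest two-sided p that an exact permutation test of 3 against 3 libraries can give, 0.1, or 0.32 after adjustment over the 16 ratios, so the design could not pass 0.05. The ratio of Ldha to Ldhb overlapped, with a log2 difference of 0.06, and so did that of Pkm to Pklr, at -0.20.

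**Figure D3:**
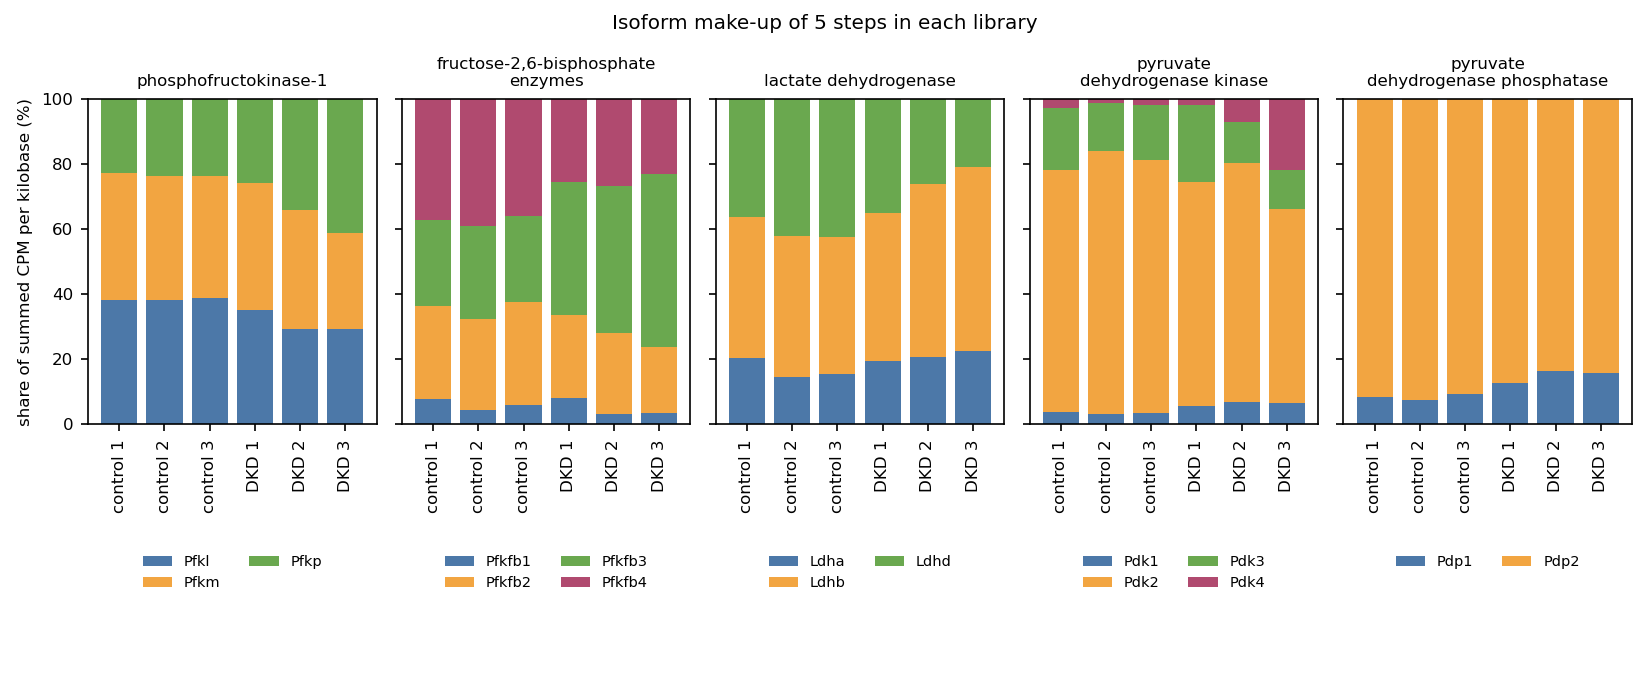
Share of each isoform (y axis, % of the summed CPM per kilobase of the step) in each of the 6 libraries (x axis) for 5 steps. The lactate dehydrogenase step includes the D-lactate enzyme Ldhd. Pfkfb3 goes from 26.4% to 28.6% in the controls to 40.8% to 53.2% in DKD, and Pdk2 remains the main kinase in every library.

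Per kilobase, the order of levels in the controls began with Ldhb (923 CPM per kilobase) and Ldhd (863), whose libraries overlapped (SDs of 43.9 and 55.2). Aldoa (498), Tpi1 (496) and Eno1 (396) followed, and Aldoa and Tpi1 did not differ beyond their spread. In DKD, Ldhd stood at 603, 368 and 267 CPM per kilobase in replicates 1 to 3, above Aldoa in replicate 1 (431) and under it in replicates 2 (457) and 3 (478). Pfkfb3 (2.44) and Pdk1 (5.54) were among the low members, and Hk2 was the lowest, at 0.064.

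Across members, the DKD libraries did not act as 1 group. For 12 of the 39 members (30.8%), DKD replicate 1 lay within the controls and replicates 2 and 3 both lay beyond them on the same side, against 18.5% of all genes: Hk2, Hk3, Pgk1, Pgam2, Eno3, Pkm, Ldha, Mpc2, Pdk4, Pdha1, Pdhb and Dlat. For 3 (7.69%, against 7.07% of all genes), DKD replicate 1 lay on the other side of the controls from replicates 2 and 3: Slc16a1, Slc16a3 and Pdk3. All 3 DKD libraries lay beyond the controls on 1 side for 11 members (28.2%, against 25.4% of all genes), 5 higher and 6 lower, where 13.8% and 11.5% of all genes did so. Those were Hk1, Pfkp, Pfkfb3, Eno2 and Pdk1, and Gpi1, Tpi1, Ldhb, Ldhd, Pdk2 and Pdp2.

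**Figure D4:**
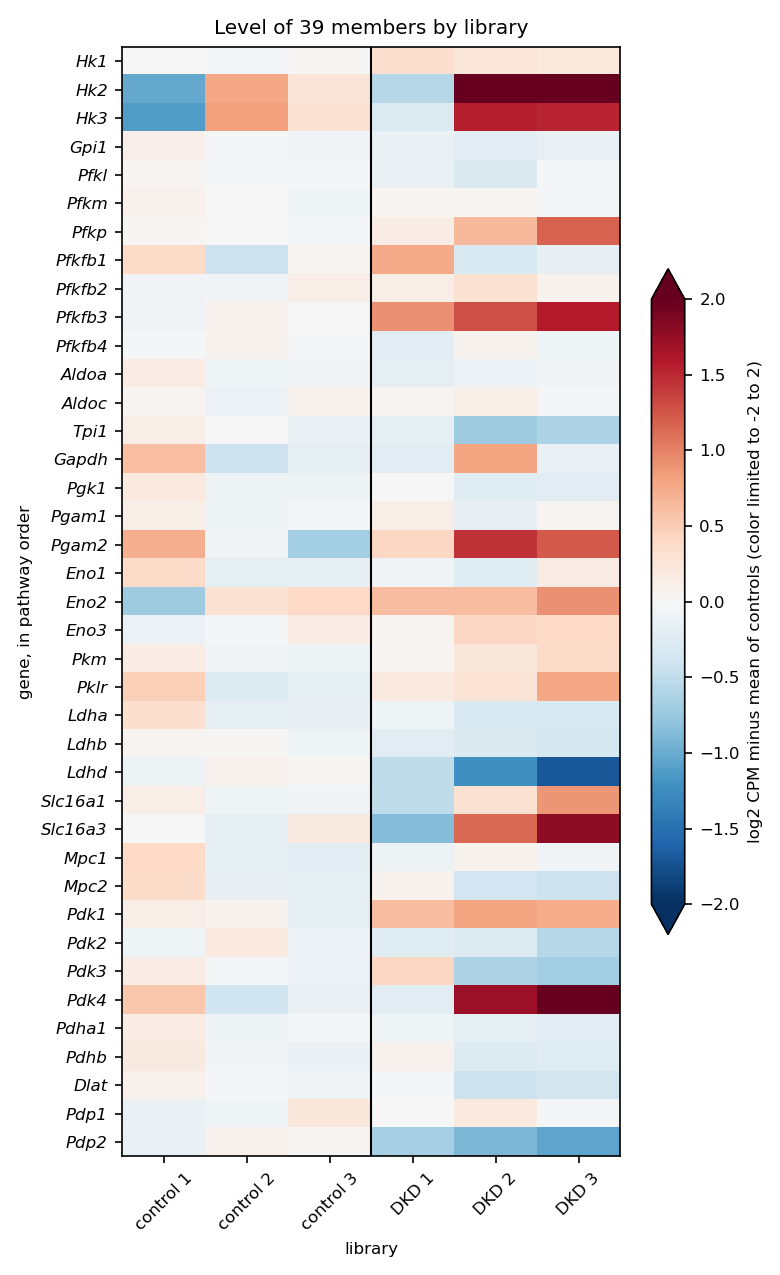
Colour shows the log2 CPM of each member (rows, in pathway order) in each library (columns) minus the mean of the controls, with the scale limited at both ends. DKD replicate 1 stands nearer to the controls than replicates 2 and 3 for Hk2, Pdk4 and Ldhd and on the other side of them for Slc16a1, Slc16a3 and Pdk3, while Pfkfb3, Pdk1 and Pdp2 have the same sign in all 3 DKD libraries.

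Other genes of the pathway came from lists outside the 39. Of 77 tested, edgeR called 0, while 8 were higher and 12 lower at an unadjusted p under 0.05. At that level 12.2% of all genes were higher and 7.05% lower. Without DKD replicate 1 edgeR called 18 of them, where it called 15.5% of all genes. With all libraries DESeq2 called 9, beside 1749 of all 19197 genes. limma-voom with quality weights called 23, beside 3397 of all 19197 genes. Of 16 tested among other glycolysis and pyruvate entry genes, 3 were higher and 2 lower at an unadjusted p under 0.05, against the same 12.2% and 7.05%. The groups did not overlap for 1 of the 16 upward and for 3 downward, against 13.8% and 11.5% of all genes. Without DKD replicate 1, the library with the hepatocyte markers, edgeR called 2 of the 16 higher and 2 lower. Over all genes it called 9.67% and 5.84%. The part of that library's hepatocyte markers in the counts with all libraries was not tested. Hkdc1, a further hexokinase, was at 1.11 to 1.61 CPM in the controls and 1.51, 5.37 and 5.93 CPM in DKD (log2 difference 1.68, unadjusted p = 0.0122). Pdpr, the regulatory subunit of the pyruvate dehydrogenase phosphatase, was lower like Pdp2, at 30.8 to 40.2 and 25.7 to 28.8 CPM (-0.44, unadjusted p = 0.00874). Pgm2, which converts sugar phosphates, was higher at 0.64 (unadjusted p = 0.0172).

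Glucose synthesis and glucose transport had 1 gene higher and 1 lower each at an unadjusted p under 0.05, among 8 tested in each list. Over all genes 12.2% were higher and 7.05% lower. Pck2, the mitochondrial phosphoenolpyruvate carboxykinase, was at 10.9 to 11.8 CPM in the controls and 15.5 to 23.8 CPM in DKD, a log2 difference of 0.85 ± 0.17 (SE) with an unadjusted p of 0.00155 (adjusted p = 0.105, edgeR). Fbp1, which reverses the phosphofructokinase step, was at 1072 to 1370 and 818 to 1023 CPM (-0.39, unadjusted p = 0.0324). The transporter Slc2a3 was higher at 1.02 (unadjusted p = 0.0243) from under 1 CPM in the controls, and Slc2a5, the fructose transporter, lower at -0.49 (unadjusted p = 0.0325). Slc5a2, the main sodium-glucose cotransporter of the proximal tubule, was at 438 to 504 CPM in the controls and at 502, 227 and 238 CPM in DKD replicates 1 to 3.

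The citrate cycle, which burns the acetyl-CoA that pyruvate dehydrogenase makes, had a lower fitted level for all 16 of its genes, against 47.6% of all genes. The median log2 difference was -0.24, against 0.02 over all genes. Scaled by library size alone, 14 of the 16 were lower, with a median of -0.094. At an unadjusted p under 0.05, 5 were lower and 0 higher, where 7.05% and 12.2% of all genes were. Among the lower ones were Suclg2 (-0.37), Sucla2 (-0.36), Sdha (-0.33) and Sdhb (-0.45). The proximal tubule markers were lower in the same libraries, with a median of -0.48, and their part in this was not tested.

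Of 11 HIF targets tested outside the members, 0 were higher and 2 lower at an unadjusted p under 0.05, where 12.2% and 7.05% of all genes were. Egln1, an oxygen sensor that HIF induces, was at 78.2 to 84.3 CPM in the controls and 59.7 to 72.5 CPM in DKD (-0.33, unadjusted p = 0.014), and Car9, a carbonic anhydrase, at 23.7 to 67.2 and 7.94 to 22.1 CPM (-1.71, unadjusted p = 0.0163). The other end of the list was Egln3, at 0.40 (unadjusted p = 0.0609). Among 18 regulators of these genes, 3 were higher and 1 lower at that level. Hnf4a, a factor of proximal tubule and liver, was at 864 to 953 CPM in the controls and 529 to 667 CPM in DKD, a log2 difference of -0.66 ± 0.13 (SE) with an unadjusted p of 0.00146 (adjusted p = 0.104, edgeR). Hif1a was at 83.7 to 95.8 and 101 to 122 CPM (0.33, unadjusted p = 0.0202), and Foxo3, a known activator of Pdk4, at 46.4 to 57.5 and 63.8 to 77.3 CPM (0.39, unadjusted p = 0.0133).

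Several lists of cell type and injury markers moved with the groups as well. Injured tubule markers summed to 819 to 909 CPM in the controls and 1181, 2777 and 3165 CPM in DKD, 8 of 8 with a higher fitted level. Podocyte markers summed to 174 to 216 and 278 to 363 CPM, markers of stroma and mesangium to 75.4 to 116 and 181 to 275 CPM, and cell cycle genes to 11.8 to 12.9 and 28.1 to 44.9 CPM. Not every list did so, and collecting duct markers summed to 664 to 768 and 671 to 813 CPM. T and B cell markers summed to 8.41 to 17.5 CPM in the controls and 4.49, 65.8 and 68.4 CPM in DKD replicates 1 to 3. The part of each of these lists in the values of Pfkfb3, Pdk1, Pfkp and the other members was not tested.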

How the data were processed

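The authors deposited 1 table of raw read counts per gene for the 3 control and 3 DKD kidneys. The submitters' processing notes list edgeR, fastp, HISAT2 and StringTie and the build GRCm39. Which step each tool did, the versions, the annotation and the strand setting are not given in those sources. Symbols came from a table of the reference (55141 of 55401 IDs matched). Exon lengths, used in place of coding lengths, are those of GENCODE M21 (GRCm38), and promoters those of RefSeq.

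Counts were tested in R 4.3.3 with the quasi-likelihood test of edgeR 4.0.16 (TMM factors, default low count filter, robust, two-sided), Benjamini-Hochberg adjusted over 19197 genes at 0.05. Ratios used a prior count of 0.5. A count of 0 allows a level of up to 3 counts, at most 0.0505 CPM, for counting error only. No pair of libraries agreed within sampling noise.

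Library values are printed for Pfkfb3, Pdk1 and each member with an unadjusted p under 0.05 or groups that do not overlap. Up to 4 genes with the smallest p are named per related list, exceptions are said, and a gene that this rule takes is not reported here. The members and lists were chosen with earlier results of these data known. Alternatives were upper quartile and RLE factors, scaling by library size alone, no filter, CPM of at least 1 in 3 libraries, a fit that was not robust, DESeq2 1.42.0, limma-voom (limma 3.58.1) with and without quality weights, a replicate block and leaving out each library.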

Additional observations from a re-analysis of the deposited data

How the results depend on the processing

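edgeR called 0 members and 0 related genes with all libraries, and also under RLE or upper quartile factors, library size alone, both other filters, the fit that was not robust, limma-voom without weights and each omission of a library other than DKD replicate 1. DESeq2 called 7 members and 9 related genes, limma-voom with quality weights 10 and 23, beside 1749 and 3397 of all 19197 genes. Leaving out 1 library gave 0 to 11 members and 0 to 18 related genes. The upper value each time was without DKD replicate 1, where 15.5% of all genes were called. The cause was not tested. With 3 libraries a group and counts of reads without molecular identifiers, levels near 1 CPM (Hk2, Hk3, Slc16a3, Pfkfb1, Eno2) are the least precise, and the first 3 of these did not pass the filter of CPM 1 in 3 libraries.

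The sign of the log2 difference was the same in every alternative for 25 members and reversed in at least 1 for 14. Scaling by library size alone moved the median over all genes from 0.02 to 0.17, and Pfkl (0.0049), Pfkfb4 (0.079), Aldoa (0.030), Pgk1 (0.0025), Eno1 (0.096), Mpc1 (0.10) and Pdhb (0.0029) then changed sign. Pgam1 was at -0.0026 with RLE factors and with DESeq2. With quality weights Pfkfb1 was at -0.035, Pgam1 at -0.030, Eno1 at 0.028 and Mpc1 at 0.13. Leaving out 1 library gave -0.026 to 0.062 for Pfkm, -0.28 to 0.34 for Pfkfb1, -0.013 to 0.083 for Aldoc, -0.25 to 0.51 for Gapdh, -0.062 to 0.092 for Pgam1, -0.18 to 0.15 for Eno1, -0.054 to 0.61 for Slc16a1, -0.17 to 0.17 for Mpc1 and -0.024 to 0.17 for Pdp1. The isoform ratios Ldha to Ldhb and Pdk3 to Pdk2 ran from -0.041 to 0.20 and from -0.24 to 0.27 on the log2 scale; the other 14 kept their sign. The cause of these reversals was not tested.

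Libraries with the same replicate number correlated at 0.034, 0.023 and 0.034 in their deviations from the group means, each highest with its own number but all under 0.1. That is a hint from the data, not the design, and the numbers were not taken as pairs. With the replicate block, edgeR called 0 members and 0 related genes.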
